A study of Rattus norvegicus with 18 samples.

Results

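The genes that mark endothelial identity were followed in cultured rings of rat thoracic aorta: Pecam1, Vwf, Erg, Icam2 and Cdh5. All probe sets of the Affymetrix rat arrays RAE230A (array A) and RAE230B (array B) annotated to 1 of these genes alone were taken, which gave 6 of 31256 probe sets. They read 4 of the 5 genes, among 13811 genes named on the arrays: Pecam1, Vwf and Icam2 on array A (Icam2 with 2 probe sets) and Erg on both array types. No probe set was matched to Cdh5, the gene of VE-cadherin, which is not analysed here. The rings came from male Fisher 344 rats aged 5 weeks per the sample labels (1 month per the design text), were 2 mm wide and were kept in serum-free medium. The VEGF group (n = 3 RNAs) received recombinant human vascular endothelial growth factor at 10 ng/ml on day 13, and the Ang1 group (n = 3) received recombinant human angiopoietin-1 at 100 ng/ml together with a poly-His antibody at 5 µg/ml, also on day 13. For both treated groups 13 days of culture are given. The untreated group (n = 3), in culture for 14 days, had neither factor nor the antibody, so that Ang1 and antibody cannot be told apart. The labels put the RNA harvest at 20 h after treatment and the design text at 18 h. Each RNA pooled 4 to 6 rings and was read on both array types. A ring holds smooth muscle, fibroblasts and leukocytes beside endothelium, and in such a mixture fewer endothelial cells and less RNA per endothelial cell cannot be told apart.

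Endothelial cells line the inner face of every vessel and, in ring cultures, send out the sprouts that VEGF promotes. Angiopoietin-1 is the activating ligand of the endothelial receptor Tie2, the product of Tek, and is known for stabilising vessels. Pecam1 encodes CD31, an immunoglobulin-family adhesion protein of endothelial junctions that also sits on platelets and leukocytes. Icam2 encodes a short adhesion molecule of resting endothelium that binds leukocyte integrins. Vwf encodes von Willebrand factor, the clotting protein that endothelium stores in Weibel-Palade bodies and that megakaryocytes make as well. Erg encodes an ETS-family transcription factor which, in human endothelial cells, is known to bind and maintain genes such as CDH5, ICAM2 and VWF. Antibodies to CD31, von Willebrand factor and ERG are common stains for endothelium.

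The stretch before a start site of Erg is shown because Erg is itself an ETS factor and its sequence can be read for the ETS core. RefSeq lists 11 transcripts of Erg, and the start site used here lies inside the gene's span, so that other transcripts start further upstream. The 250 bases before that start site, at chr11:48251567-48251816 on the minus strand of build GRCr8, are credited to RefSeq and written 5′ to 3′, with the core motif of ETS factors, GGAA on either strand, in capitals.
Erg: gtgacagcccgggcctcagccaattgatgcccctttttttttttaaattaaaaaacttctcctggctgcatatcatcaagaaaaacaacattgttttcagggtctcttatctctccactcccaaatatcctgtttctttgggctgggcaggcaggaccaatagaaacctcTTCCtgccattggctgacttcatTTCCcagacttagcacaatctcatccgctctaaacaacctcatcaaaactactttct
The stretch held 2 GGAA cores, both on the opposite strand and so printed as TTCC. Among 33469 promoters of this length, 93.2% held at least 1 such core and 77.4% at least 2. The longer form AGGAAG, which overlaps 1 of the cores, was found once (29.5% of all promoters hold it), the GATA motif AGATAA once (10.3%), and TATAAA not at all (12.9%). On the rat genome Icam2 and Pecam1 lie on the same chromosome with 7 annotated genes between them, 2 of them protein-coding.

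The deposited values are signals per probe set on a linear scale. Levels below are log2(signal + 16) after quantile normalisation among the 9 arrays of 1 type, a scale on which fold changes of dim probe sets are understated. A probe set was kept unless its mean fell under the 40th percentile of its array type, which was 6.52 log2 units (array A) or 6.71 (array B). Of the 6 member probe sets 5 passed, and the second Icam2 probe set, 1390310_at, did not (mean 6.26). Among the 9 RNAs, untreated replicate 2 and Ang1 replicate 2 stood apart, with median correlations to the other arrays on array A of 0.79 and 0.69, against 0.87 to 0.94 for the other 7, and on array B of 0.75 and 0.43, against 0.81 to 0.87. Their Gapdh 3' signal on array A was 64.4 and 446.9, against 2217.8 to 3246.8. The ratio of 3' to 5' actin signal on array A, a measure of how far the labelled RNA reaches from its end, was 8.79 to 12.4 in VEGF rings, 6.18 to 8.29 in Ang1 rings and 1.86 to 7.70 in untreated rings. Ang1 replicate 3 on array B had been scaled to a trimmed mean of 94.8, where the other 17 arrays lay within 0.1 of each other at up to 250.1, and quantile normalisation brings it level with them. Untreated replicate 1 was labelled in 2 cycles per the labels and the other RNAs by the standard protocol. Member differences, and list genes and medians that moved, are therefore also given without the pair that stood apart.

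The adhesion genes were read by Pecam1 1371545_at and Icam2 1389235_at. Pecam1 had 8.20, 7.36 and 7.13 log2 units in VEGF replicates 1 to 3, 8.28, 6.29 and 7.93 in Ang1 replicates 1 to 3 and 7.96, 5.90 and 7.17 in untreated replicates 1 to 3. The 3 groups overlapped, and the lowest values were those of untreated replicate 2 and Ang1 replicate 2. In deposited units Pecam1 was at 133.5 to 277.8 in VEGF rings, 107.9 to 294.8 in Ang1 rings and 38.5 to 225.9 in untreated rings. Its mean was 7.56 ± 0.56 after VEGF, 7.50 ± 1.06 after Ang1 and 7.01 ± 1.04 in untreated rings (SD, n = 3 each), an order in which no neighbours differed beyond their spread. Icam2 had 8.23, 8.18 and 9.15 after VEGF, 8.24, 7.56 and 8.01 after Ang1 and 8.58, 6.27 and 9.20 in untreated rings. Here too the groups overlapped, with untreated replicates 3 and 2 as the highest and the lowest of the 9. Icam2 averaged 8.52 ± 0.54 after VEGF, 7.94 ± 0.35 after Ang1 and 8.02 ± 1.55 in untreated rings (SD, n = 3 each). The dim Icam2 probe set ran from 5.18 to 6.97 after VEGF, from 6.37 to 7.09 after Ang1 and from 4.62 to 6.88 in untreated rings. Untreated replicate 2 was again the lowest, at a deposited signal of 7.3, while Ang1 replicate 2 was the highest, at 178.9.

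Vwf, the stored clotting factor, had its lowest mean after Ang1. Probe set 1389234_at had 7.60, 6.64 and 7.18 log2 units in VEGF replicates 1 to 3, 6.75, 5.38 and 6.73 in Ang1 replicates and 7.82, 6.64 and 7.13 in untreated replicates. The 3 Ang1 values lay below untreated replicates 1 and 3, but Ang1 replicates 1 and 3 lay above untreated replicate 2, so the groups overlapped. In deposited units the values were 172.1, 82.8 and 137.8 after VEGF, 93.8, 43.4 and 81.1 after Ang1 and 201.7, 71.5 and 113.6 in untreated rings. The means were 7.14 ± 0.48 after VEGF, 6.28 ± 0.79 after Ang1 and 7.20 ± 0.59 in untreated rings (SD, n = 3 each). Vwf passed the filter by its mean over the 9 RNAs (6.87), while its Ang1 mean lay under the cut of 6.52.

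Erg, the transcription factor, was read by a probe set on each array type in the same RNAs, with different results. On array A (1387789_at) it had 7.22, 6.74 and 7.40 log2 units in VEGF replicates 1 to 3, 7.33, 8.15 and 7.13 in Ang1 replicates and 7.05, 5.18 and 6.98 in untreated replicates. All 3 Ang1 values lay above all 3 untreated values, with Ang1 replicate 2 the highest and untreated replicate 2 the lowest of the 9. On array B (1392220_at) it had 9.79, 8.59 and 8.82 after VEGF, 9.04, 7.59 and 8.86 after Ang1 and 9.63, 8.93 and 9.41 in untreated rings. There the groups overlapped: untreated replicates ranked 2, 5 and 3 of the 9, Ang1 replicates 4, 9 and 6, and Ang1 replicate 2 was the lowest. Ang1 thus had the highest group mean on array A, 7.53 ± 0.54 against 6.40 ± 1.06 in untreated rings, and the lowest on array B, 8.50 ± 0.79 against 9.32 ± 0.36 (SD, n = 3 each). The VEGF means were 7.12 ± 0.34 on array A and 9.07 ± 0.64 on array B. On array A Erg passed the filter by its mean over the 9 RNAs (7.02), while its untreated mean lay under the cut of 6.52. By its annotation the probe set on array A was drawn from the RefSeq mRNA of Erg and that on array B from an expressed sequence tag.

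**Figure D1:**
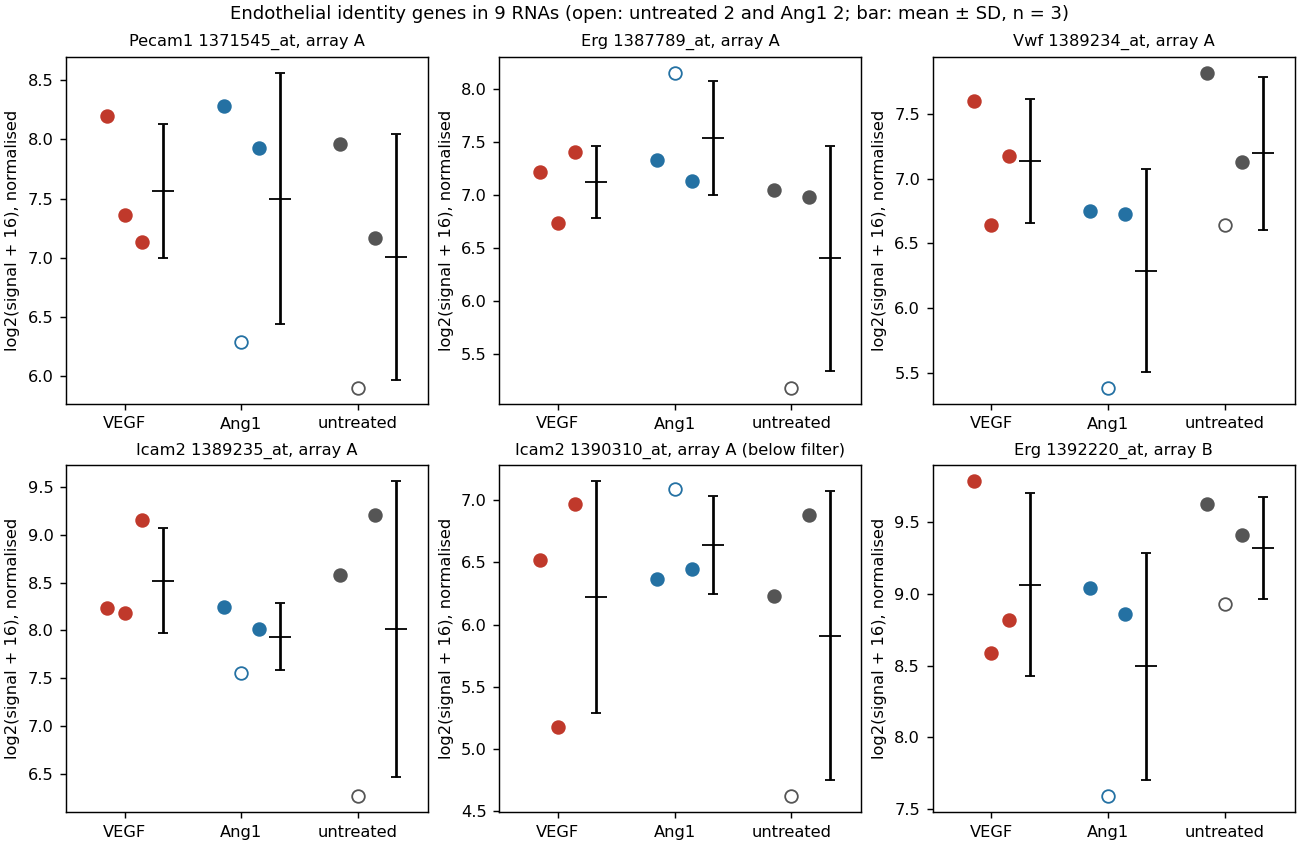
Normalised log2(signal + 16) (vertical axes, each with its own range) of the 6 member probe sets in VEGF, Ang1 and untreated rings. Each point is 1 RNA, open points are untreated replicate 2 and Ang1 replicate 2, and bars are the group mean ± SD (n = 3). Untreated replicate 2 lies at the bottom for Pecam1, Erg on array A and both Icam2 probe sets, and Ang1 replicate 2 for Vwf and for Erg on array B.

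The first comparison asked whether VEGF shifted endothelial identity genes. None of the 5 kept probe sets passed the test (limma over all kept probe sets, adjusted p = 0.999 to 1.00). Erg on array A was 1.65-fold higher (0.72 ± 0.50 log2, SE, 95% interval -0.39 to 1.82), Pecam1 1.47-fold (0.55 ± 0.61, -0.80 to 1.90) and Icam2 1.42-fold (0.51 ± 0.64, -0.91 to 1.92). Vwf differed by -0.06 ± 0.46 (-1.07 to 0.95) and Erg on array B by -0.26 ± 0.47 (-1.29 to 0.77). All 5 intervals include 0, and each also includes a doubling or a halving, or both, so that changes of that size are not excluded with 3 RNAs a group. Over all kept probe sets, 0% of 9520 (array A) and 0% of 9166 (array B) were called. At an unadjusted p below 0.05 stood 0 of the 5 member probe sets, where the share over all probe sets was 1.65% (array A) or 0.72% (array B). The groups did not overlap in 0 of the 5, against shares of 8.45% (array A) and 6.44% (array B). With the replicate number as a block, 0 member probe sets of either array type had an unadjusted p below 0.05 (limma). The share over all kept probe sets was then 3.09% (array A) or 1.07% (array B). The 3 higher values rest on untreated replicate 2: without it Icam2 was at -0.36, Pecam1 at 0.00 and Erg on array A at 0.11. Without both RNAs that stood apart the differences were 0.00 ± 0.38 (Pecam1), 0.11 ± 0.27 (Erg, array A), -0.35 ± 0.34 (Vwf), -0.38 ± 0.36 (Icam2) and -0.47 ± 0.38 (Erg, array B). The sign for Vwf also turned without VEGF replicate 2 (0.19) or untreated replicate 1 (0.25) and with values as deposited (0.07).

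After Ang1 the identity genes went in different directions, and none passed the test (limma, adjusted p = 0.482 to 0.992). Erg on array A was 2.19-fold higher than in untreated rings (1.13 ± 0.50 log2, 95% interval 0.03 to 2.24, unadjusted p = 0.0455 in limma), and it was the only 1 of the 5 whose groups did not overlap. Vwf had 0.531 times the untreated level (-0.91 ± 0.46, -1.92 to 0.10) and Erg on array B 0.565 times (-0.82 ± 0.47, -1.85 to 0.21). Pecam1 differed by 0.49 ± 0.61 (-0.86 to 1.84) and Icam2 by -0.08 ± 0.64 (-1.49 to 1.34). Over all kept probe sets 0% (array A) and 0% (array B) were called, 3.17% (array A) and 10.5% (array B) had an unadjusted p below 0.05, and in 9.11% (array A) and 17.5% (array B) the groups did not overlap; Erg was 1 of the 5 member probe sets by both measures, and with 5 no excess over these shares can be read. Without both RNAs that stood apart the Erg difference on array A was 0.22 ± 0.29, and without untreated replicate 2 alone it was 0.52. Vwf kept its direction in this comparison under all 19 alternatives, at -0.48 without Ang1 replicate 2, at -0.60 without untreated replicate 1, at -1.20 without untreated replicate 2 and at -0.77 ± 0.37 without both, and none of these passed (adjusted p = 0.403 to 1.00 over the alternatives). Erg on array B likewise stayed below 0, at -0.39 without Ang1 replicate 2 and -0.59 ± 0.42 without both, and Pecam1 was at 0.56 ± 0.41 without both. Within replicate numbers 1, 2 and 3 the Vwf difference was -1.07, -1.26 and -0.40 and for Erg on array B -0.58, -1.34 and -0.56. For Erg on array A it was 0.27, 2.97 and 0.15 and for Pecam1 0.32, 0.39 and 0.76. Each of these was of 1 sign, while Icam2 changed sign between the numbers. With the replicate number as a block, unadjusted p was 0.0119 (Vwf), 0.0418 (Erg, array B) and 0.0467 (Erg, array A) in limma. Thus 3 of the 5 stood below 0.05 in place of 1. The share over all kept probe sets was then 4.36% (array A) or 10.7% (array B). None was called with the block (adjusted p = 0.453 to 0.978 over the 5). With the pair left out, the 2 remaining Ang1 values lay below the 2 remaining untreated ones for Vwf, Icam2 (-0.78 ± 0.39) and Erg on array B and above them for Erg on array A, while 36.8% (array A) and 38.6% (array B) of all kept probe sets did not overlap in such a comparison of 2 with 2. Pecam1 turned to -0.07 without untreated replicate 2, and Icam2 to 0.11 without Ang1 replicate 2, 0.21 without untreated replicate 1, 0.51 without untreated replicate 3 and 0.09 with values as deposited.

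The factors were also compared directly, VEGF against Ang1. Vwf was 1.81-fold higher after VEGF (0.85 ± 0.46 log2, 95% interval -0.15 to 1.86), Erg on array B 1.48-fold (0.57 ± 0.47, -0.46 to 1.60) and Icam2 by 0.58 ± 0.64 log2 (-0.83 to 2.00). Erg on array A differed by -0.41 ± 0.50 (-1.52 to 0.69) and Pecam1 by 0.06 ± 0.61 (-1.29 to 1.41). None passed (limma, adjusted p = 0.61 to 0.994), and 0 of the 5 had an unadjusted p below 0.05 or groups without overlap. Over all kept probe sets 0% (array A) and 0% (array B) were called, 1.99% (array A) and 8.48% (array B) had an unadjusted p below 0.05, and 8.07% (array A) and 15.5% (array B) did not overlap. With the replicate number as a block Vwf had an unadjusted p = 0.0165 (limma, adjusted p = 0.87), the only 1 of the 5 below 0.05. The share over all kept probe sets was then 4.29% (array A) or 9.68% (array B). Without both RNAs that stood apart the Vwf difference was 0.42 ± 0.34, that of Icam2 0.40 ± 0.36, that of Erg on array B 0.12 ± 0.38, that of Erg on array A -0.11 ± 0.27 and that of Pecam1 -0.57 ± 0.38. Pecam1 turned to -0.25 without VEGF replicate 1 and likewise to -0.57 without Ang1 replicate 2.

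**Figure D2:**
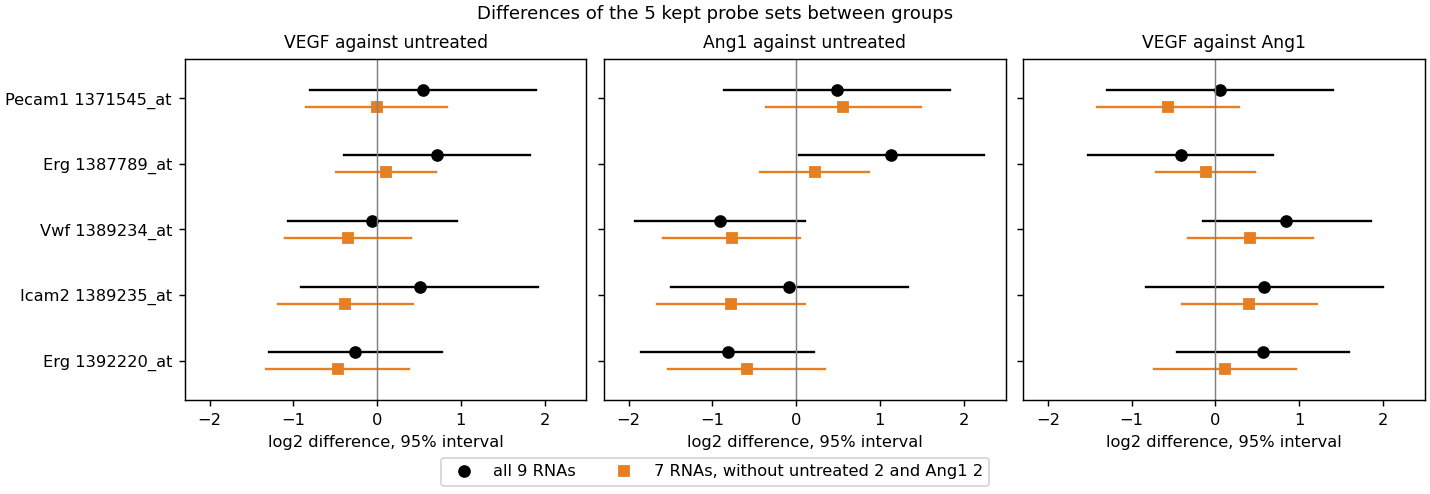
Log2 differences (horizontal axes) of the 5 kept probe sets with 95% intervals from limma, for VEGF and Ang1 rings each against untreated ones and for VEGF rings against Ang1 rings. Black circles are the fit to all 9 RNAs and orange squares the fit without untreated replicate 2 and Ang1 replicate 2; all drawn intervals include 0 but that of Erg 1387789_at after Ang1 over 9 RNAs, 0.03 to 2.24.

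Untreated replicate 2 and Ang1 replicate 2 carried much of the spread of these genes. Over the 9 RNAs Pecam1 spanned 2.38 log2 units, Vwf 2.44, Icam2 2.93 and Erg on array A 2.97, where the median kept probe set of array A spanned 1.39, and Erg on array B spanned 2.20 where the median was 1.68. Without the 2 RNAs the spans were 1.15 for Pecam1, 1.18 for Vwf, 1.18 for Icam2, 0.66 for Erg on array A and 1.20 for Erg on array B. A span cannot widen when RNAs are left out, and that of the median kept probe set was not read without the 2. The narrowing is thus not shown to be particular to these genes. Each of the 5 kept probe sets had its lowest value in 1 of these 2 RNAs, where 15.3% (array A) and 13.1% (array B) of all kept probe sets were lowest in untreated replicate 2 and 26.8% (array A) and 32.7% (array B) in Ang1 replicate 2. Set against the mean of untreated replicates 1 and 3, untreated replicate 2 stood at -2.62 log2 units for Icam2, -1.84 for Erg on array A, -1.66 for Pecam1, -0.84 for Vwf and -0.59 for Erg on array B. Ang1 replicate 2 stood at -1.81 for Pecam1, -1.36 for Vwf, -1.36 for Erg on array B and -0.57 for Icam2 against the mean of Ang1 replicates 1 and 3, but at 0.92 for Erg on array A and 0.68 for the dim Icam2 probe set. The low Gapdh signal of these 2 RNAs thus went with low values of most identity genes, and its part in them was not tested.

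The members also followed each other unevenly over the RNAs. The closest pair was Vwf on array A and Erg on array B, with a Pearson correlation of 0.94 over 9 RNAs and 0.85 over the 7 left without the pair that stood apart. Among the 9166 kept probe sets of array B 0.0545% were at least as alike to Vwf over the 9 RNAs as Erg was, and 0.436% over the 7. The pair was picked for its closeness, so these shares are not those of a pair named beforehand. The pair of Erg probe sets had a correlation of -0.30 over 9 RNAs and 0.15 over 7. Of the kept probe sets of array B 66.2% were at least as alike to Erg on array A over 9 RNAs and 41.8% over 7. Erg on array A was most like the dim Icam2 probe set (0.87 over 9 and 0.72 over 7), and the Icam2 probe sets had 0.67 and 0.61 with each other. Pecam1 had 0.59 with Vwf, 0.59 with Erg on array B and 0.56 with Icam2 over 9 RNAs, but 0.18, 0.42 and -0.71 over 7. Among the kept probe sets of the array type of each, 16.6%, 11.4% and 18.5% were at least as alike to Pecam1 over 9 RNAs. Over 7 RNAs these shares were 39.8%, 23.5% and 92.6%. The points share their RNAs, their group differences and, within an array type, the hybridisation, and these values describe the 9 RNAs only.

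**Figure D3:**
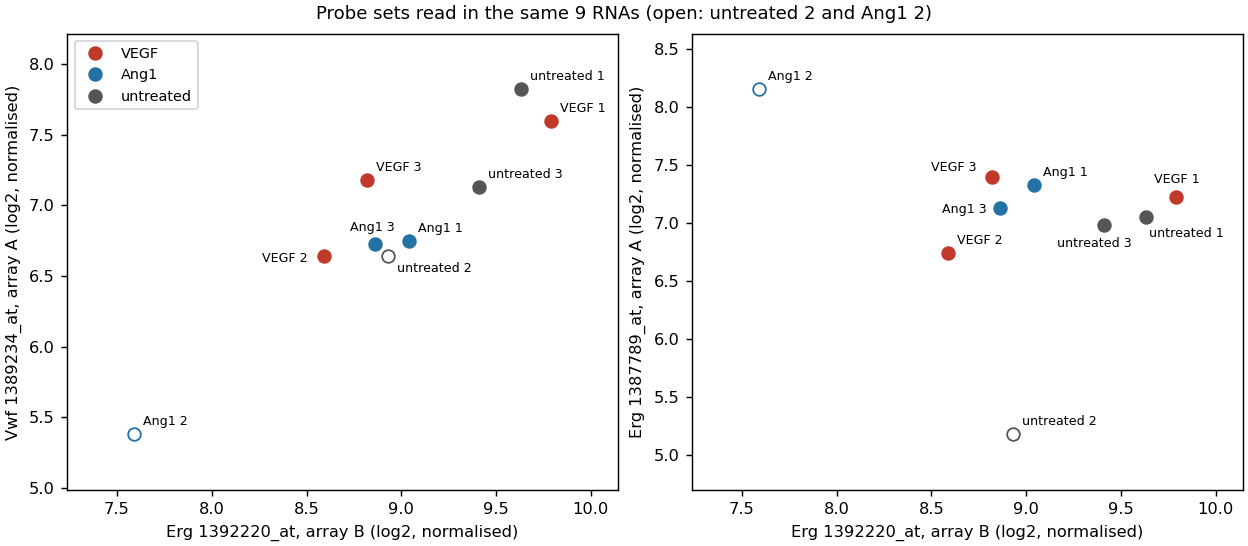
Normalised log2 levels of Vwf on array A (left) and Erg on array A (right) on the vertical axes against Erg on array B on the horizontal axes, 1 point per RNA, with untreated replicate 2 and Ang1 replicate 2 open. Vwf and Erg on array B run along a line (correlation 0.94 over 9 RNAs), while the Erg probe sets do not (-0.30 over 9 RNAs and 0.15 over the 7 filled points); Ang1 replicate 2 is highest on array A and lowest on array B.

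The genes most like each member over the 9 RNAs were looked up among the probe sets with 1 gene symbol on the same array type, 8000 on array A and 4938 on array B. For Pecam1 they were Cs (0.98), Eif6 (0.97) and Bhlhe40 (0.96), which had 0.97, 0.92 and 0.94 over the 7 RNAs. For Vwf they were Ntpcr (0.96), Tm2d3 (0.95) and Rrp1b (0.94), with 0.90, 0.93 and 0.92 over the 7. For Icam2 they were Psmd11 (0.97), Dapk3 (0.96) and C10h1orf35 (0.96), with 0.85, 0.90 and 0.86. For Erg on array B they were Pcdh9 (0.95), Usp27x (0.95) and Dcaf10 (0.93), with 0.89, 0.86 and 0.84. Each is the top of a long ranking made from 9 RNAs.

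Other endothelial genes were read beside the identity genes. Kdr, the main VEGF receptor, had 9.11, 8.72 and 8.77 log2 units after VEGF, 8.42, 7.26 and 9.05 after Ang1 and 8.72, 8.75 and 8.66 in untreated rings. It was lowest in Ang1 replicate 2, as Vwf was, and its correlation with Vwf was 0.80 over 9 RNAs and 0.26 over 7. Tek, the angiopoietin receptor, had 10.93, 10.60 and 11.08 after VEGF, 10.83, 9.81 and 10.96 after Ang1 and 11.24, 11.11 and 11.49 in untreated rings. The untreated values of Tek lay above both treated groups. Of all kept probe sets of array B, 6.44% did not overlap between VEGF and untreated rings and 17.5% between Ang1 and untreated rings. Tek differed by -0.41 ± 0.35 log2 after VEGF and by -0.74 ± 0.35 after Ang1 (limma, adjusted p = 0.999 and 0.466), and without the pair that stood apart by -0.50 ± 0.26 and -0.48 ± 0.28. Its correlation with Vwf was 0.82 over 9 RNAs and 0.53 over 7, and with Erg on array B 0.83 and 0.54. The claudin gene Cldn5, for a tight junction protein of endothelium, had 7.68, 7.47 and 8.88 after VEGF, 7.85, 7.49 and 8.69 after Ang1 and 8.86, 7.30 and 9.39 in untreated rings, with its extremes in the same 2 untreated RNAs as Icam2 (correlation 0.76 over 9 RNAs and 0.73 over 7). Fli1, the ETS factor closest to Erg, had 6.84, 6.87 and 7.09 after VEGF, 7.02, 8.48 and 6.78 after Ang1 and 6.39, 6.61 and 6.93 in untreated rings. Like Erg on array A it was highest in Ang1 replicate 2, with a correlation of 0.63 over 9 RNAs and 0.37 over 7, but with Erg on array B it had -0.82 and -0.48 and with Vwf -0.82 and -0.58. Tie1, an orphan receptor of endothelium, differed by -0.19 ± 0.29 after VEGF and 0.30 ± 0.29 after Ang1.

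**Figure D4:**
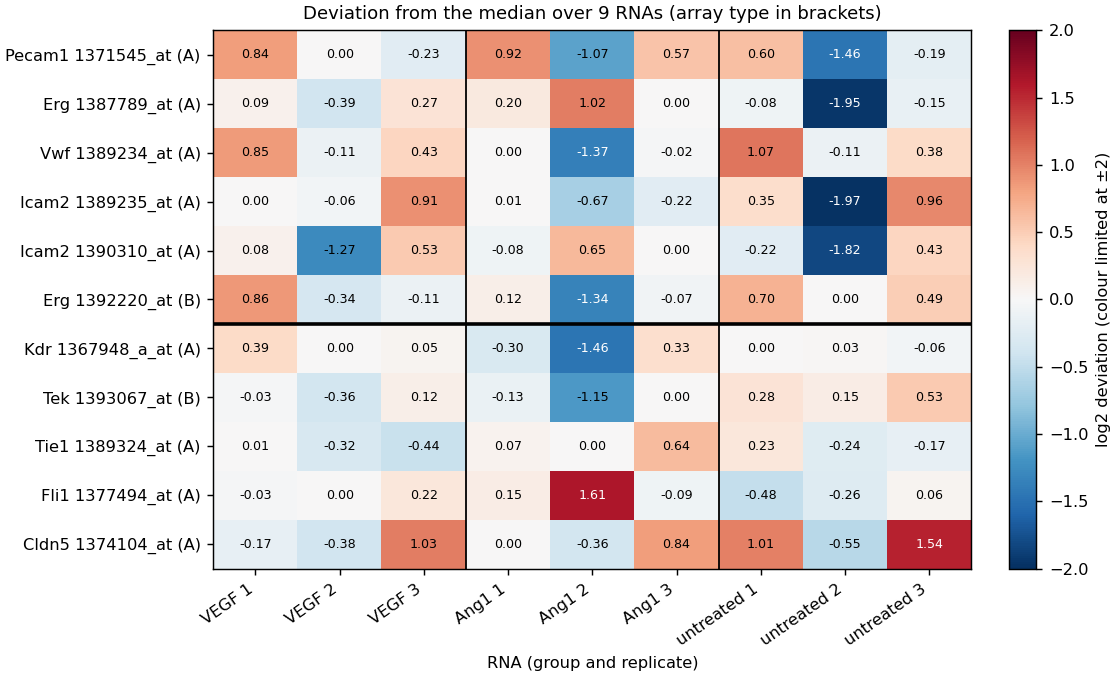
Deviation of each probe set from its own median over the 9 RNAs in log2 units (numbers and colour, colour limited at 2), for the 6 member probe sets above the line and Kdr, Tek, Tie1, Fli1 and Cldn5 below it. Columns are the RNAs by group and the letter in brackets is the array type; untreated replicate 2 is low for Pecam1 (-1.46), Erg on array A (-1.95) and Icam2 (-1.97), and Ang1 replicate 2 for Vwf (-1.37), Erg on array B (-1.34) and, below the line, Kdr.

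Further genes were read in 5 lists drawn up for roles in endothelium, and many of them are not made by endothelium alone. Their counts and medians thus describe the whole ring. In these lists 0 of 85 kept genes passed the test in any comparison (limma, Benjamini-Hochberg). The lists held 106 genes, of which 100 had a probe set. After VEGF 45 were higher and 40 lower (median 0.02 log2), and after Ang1 38 were higher and 47 lower (median -0.06), where the medians over all kept probe sets of array A were -0.01 and -0.03. Without the pair that stood apart 37 were higher and 48 lower after VEGF (median -0.04) and 44 higher and 41 lower after Ang1 (median 0.03), so that the balance turned in both comparisons, and 0 passed. Of the genes named here, the difference turned sign or moved by over 1.5 times without the pair for 9 of 19 after VEGF and 15 of 17 after Ang1, and those values are given as well. At an unadjusted p below 0.05 (limma) stood 1 gene of the 85 after VEGF and 1 after Ang1, given here by name with the genes of the largest ratio of difference to SE. Over all kept probe sets this share was 1.65% (array A) and 0.72% (array B) after VEGF. After Ang1 it was 3.17% (array A) and 10.5% (array B). With 1 gene of 85 no excess over these shares can be read. Among 22 genes of junction and surface proteins, 11 were higher and 11 lower after VEGF. Emcn, for the sialomucin endomucin, had 7.57, 7.47 and 7.57 after VEGF, all above the 6.44, 6.66 and 6.77 of untreated rings (0.91 ± 0.26, and 0.97 ± 0.24 without the pair, unadjusted p = 0.00526 and adjusted p = 1.00 in limma over 9 RNAs). Emcn had 6.32, 6.65 and 6.76 after Ang1, also below the VEGF values. Of all kept probe sets of array A, 8.45% did not overlap between VEGF and untreated rings and 8.07% between VEGF and Ang1 rings. Between the factors Emcn was 1 of 2 genes of the 85 with an unadjusted p below 0.05, beside Procr (51 higher after VEGF and 34 lower, median 0.07, against 34 higher and 51 lower, median -0.07, without the pair). Over all kept probe sets this share was 1.99% (array A) and 8.48% (array B). Ocln, for the junction protein occludin, differed by -0.52 ± 0.32 (-0.26 without the pair), the gap junction gene Gja1 by -0.46 ± 0.30 (-0.23) and Cldn5 by -0.51 ± 0.57 (-1.15). After Ang1 8 were higher and 14 lower, and Ptprb, the phosphatase VE-PTP that binds VE-cadherin, had -0.79 ± 0.38 (-0.50 without the pair), the adhesion gene Jam2 -0.92 ± 0.56 (0.01), Clec14a -0.78 ± 0.49 (-0.36) and Cldn5 -0.51 ± 0.57 (-0.88). Without Ang1 replicate 2 alone Jam2 was at -0.27 and Clec14a at -0.38.

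Of 13 cytoplasmic partners of the adhesion proteins 7 were higher and 6 lower after VEGF, with the alpha-catenin gene Ctnna1 at -0.60 ± 0.31 (-0.39 without the pair), vinculin (Vcl) at -0.70 ± 0.42 (-0.20 without untreated replicate 2 alone) and the phosphatase gene Ptpn6 at 0.53 ± 0.44. After Ang1 8 were higher and 5 lower, with the p120-catenin gene Ctnnd1 at 0.67 ± 0.33 (0.43 without the pair), radixin (Rdx) at -0.74 ± 0.51 (0.04) and Ptpn6 at 0.55 ± 0.44 (1.07). Of 11 receptor genes 8 were higher and 3 lower after VEGF (median 0.36), against 5 higher and 6 lower (median -0.04) without the pair. Among them the TGF-beta family receptor gene Acvrl1 was at 0.50 ± 0.31 (0.33 without the pair) and Kdr at 0.16 ± 0.41, while Eng, of the same receptor family, was at 0.86 ± 0.85 and at -0.05 without untreated replicate 2. After Ang1 6 were higher and 5 lower (median 0.03), with Acvrl1 at 0.58 ± 0.31 (0.27 without the pair, where the median of the list was 0.24) and Kdr at -0.46 ± 0.41 (0.03 without Ang1 replicate 2). Of 23 transcription factor genes 12 were higher and 11 lower after VEGF, with Lmo2 at 0.48 ± 0.29, the ETS gene Ets2 at 0.36 ± 0.25 (0.23 without the pair), Fli1 at 0.29 ± 0.42 and the flow-induced gene Klf2 at -0.65 ± 0.47. After Ang1 11 were higher and 12 lower, and the SOX gene Sox17 had -1.19 ± 0.77 (-0.15 without the pair), Fli1 0.79 ± 0.42 (0.25) and Ets2 0.50 ± 0.25 (0.32). Of 16 genes of storage granules and haemostasis, the setting of Vwf, 7 were higher and 9 lower after VEGF, with the caveolin gene Cav1 at -0.42 ± 0.24, the endothelin-converting enzyme gene Ece1 at 0.49 ± 0.38 (0.13 without the pair) and endothelin (Edn1) at 0.43 ± 0.34. After Ang1 5 were higher and 11 lower, with the granule GTPase gene Rab27a at -1.46 ± 0.89 (-0.20 without the pair), the protein C receptor gene Procr at -0.71 ± 0.36 and the caveolin gene Cav2 at -1.39 ± 0.58 (-0.63 without the pair, unadjusted p = 0.0354 and adjusted p = 0.466 in limma over 9 RNAs). Of Rab27a, Cav2 and Sox17 the lowest value was that of Ang1 replicate 2, at 5.18, 7.89 and 7.60 log2 units.

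**Figure D5:**
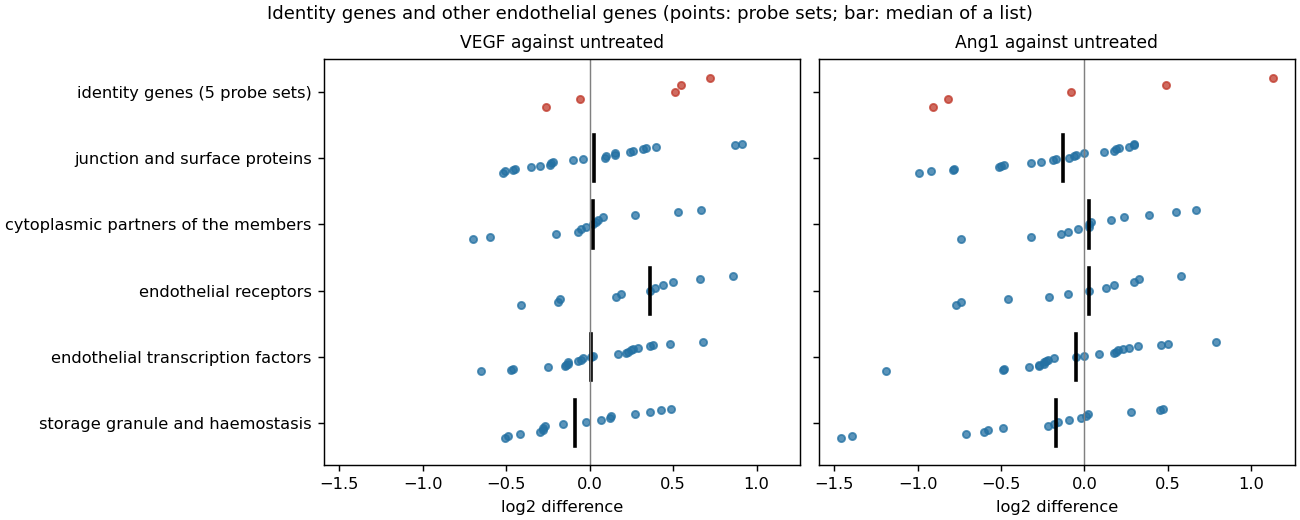
Log2 differences (horizontal axes) after VEGF and after Ang1 against untreated rings, 1 point per kept probe set, for the 5 probe sets of the identity genes (red) and the genes of 5 other lists drawn up for roles in endothelium (blue), with the list median as a black bar. List medians lie between -0.17 and 0.36, and no gene passed the adjusted threshold.

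Markers of the other cells of the ring were read beside these genes, since leukocytes and platelets also make Pecam1 or Vwf. The summed normalised signal of 12 leukocyte genes of array A was 16261 to 19183 in VEGF rings, 16574 to 16813 in Ang1 rings and 11073 to 18332 in untreated rings, with the lowest sum in untreated replicate 3. Of 14 kept leukocyte genes 0 passed the test, with a median difference of 0.21 after VEGF and 0.18 after Ang1, and 1 of them, the integrin gene Itgal (named after its values were seen), had an unadjusted p below 0.05 (0.94 ± 0.39 log2 after Ang1). Over all kept probe sets this share after Ang1 was 3.17% (array A) and 10.5% (array B). For 8 smooth muscle genes of array A the sum was 3312 to 4411 in VEGF rings, 2059 to 4759 in Ang1 rings and 2588 to 7196 in untreated rings, lowest in Ang1 replicate 2 and, among untreated rings, in untreated replicate 2. For 9 fibroblast genes it was 34385 to 35511 in VEGF rings, 32154 to 37829 in Ang1 rings and 33270 to 34700 in untreated rings. The medians of all kept genes of these lists, 10 of smooth muscle and 9 of fibroblasts, were -0.01 and 0.03 after VEGF and -0.06 and -0.09 after Ang1. Without the pair that stood apart, 14 of the 14 leukocyte genes were higher after VEGF (median 0.47) and 13 after Ang1 (median 0.31), and the smooth muscle medians were -0.32 after VEGF and -0.17 after Ang1, with 0 genes called. In deviation from the mean over 9 RNAs, 12 leukocyte genes of array A averaged 0.23 log2 in untreated replicate 1 and -0.63 in replicate 3. VEGF rings had 0.15 to 0.29 and Ang1 replicates 1 and 3 had 0.15 and 0.04. Of untreated replicates 1 and 3, only replicate 3 lay below them. The pair that stood apart, untreated replicate 2 (-0.21) and Ang1 replicate 2 (-0.22), also lay below them. On array B (2 genes) untreated replicates 1 and 3 had -0.25 and -0.76, below VEGF rings (0.00 to 0.13) and Ang1 replicates 1 and 3 (0.84 and 0.52). Of the platelet and megakaryocyte list 3 of 9 genes were kept, and medians were 0.07 after VEGF and 0.57 after Ang1 (0.11 and 0.40 without the pair). The summed signal of the 2 on array B, Gp9 and Treml1, was 548, 1570 and 470 in Ang1 replicates 1 to 3 and 368 to 406 in untreated rings, so that Ang1 replicate 2 was far above the rest. Pf4 on array A had 1006, 2424 and 1122 in Ang1 replicates 1 to 3, also highest in replicate 2. In untreated replicates 1 to 3 it had 1732, 2526 and 1097, and it differed by -0.27 ± 0.51 log2 after Ang1. The pericyte, mesothelial and adipocyte lists, with 6, 3 and 2 kept genes, had medians of -0.03, -0.36 and 0.29 after VEGF and of -0.15, 0.00 and -0.01 after Ang1 (-0.27, -0.13 and 0.52, and -0.37, 0.00 and -0.10, without the pair). No listed gene was at 0 on any array, and 0 genes of these lists passed the test. The part of these cells in the levels of the identity genes was not tested.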

How the data were processed

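The authors deposited MAS5 signal intensities on a linear scale, per the submitters' processing notes; the MAS5 version, the detection calls and the genome build are not given in the sources used here. Of 15923 probe sets on array A and 15333 on array B, 57 controls on each were left out. Symbols came from the platform annotation, updated by gene ID to RefSeq. log2(signal + 16) was quantile normalised within each array type, because array medians of the deposited intensities spread over 0.76 and 1.58 log2 units, above a limit of 0.3, and probe sets at or above the 40th percentile of the mean were kept (9520 and 9166). Differences were fitted with limma 3.58.1 in R 4.3.3 (lmFit, eBayes with intensity trend) over the 9 arrays of a type, adjusted by Benjamini-Hochberg within array type and comparison at 0.05. The code was tested on simulated data, which checks the code and not the power to find differences of the size seen here. A gene of a list was read by its brightest kept probe set, on array A where kept there. Named are all members, the 3 genes per endothelial list and comparison with untreated rings with the largest ratio of difference to SE, Kdr, Tek, Tie1, Fli1, Cldn5 and Cd34 where measured, and the 3 genes most correlated with the brightest kept probe set of each member. Members, lists and alternatives were chosen with earlier results of these data known. List genes were refitted without untreated replicate 2 and Ang1 replicate 2, an alternative chosen after seeing the data. Same-numbered RNAs of VEGF and untreated rings, and of Ang1 and untreated rings, deviated together in every pair (correlations 0.14 to 0.49 on both array types), so the number was taken as a pairing there from the data. For VEGF against Ang1, with -0.21 to 0.23, it was not. The main fits hold no block for the number, so their SEs, intervals and p-values leave this pairing out. Fits with the block are given beside them. Labels do not tie replicate numbers to animals, although the design text has each of 3 animals give 1 RNA per group, so p-values measure the spread between these samples. The number of arrays limits the precision.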

Additional observations from a re-analysis of the deposited data

How the results depend on the processing

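Over 19 alternatives (values as deposited, median scaling, a pseudocount of 1, no filter, a filter at the 20th percentile, no intensity trend, array weights, the replicate block, only the groups compared, each RNA left out and both RNAs that stood apart left out) 0 member probe sets were called in any comparison or array type. Of 288 member differences under these settings 16 turned direction, all in Pecam1, Icam2 1389235_at and Vwf. Not counted among them was Pecam1 (VEGF against untreated) without both RNAs that stood apart, at 0.00 log2 or 0.997-fold. With values as deposited Vwf (VEGF against untreated) was at 0.07, Icam2 (Ang1 against untreated) at 0.09 and Pecam1 (VEGF against Ang1) at -0.13. With array weights Icam2 (VEGF against untreated) was at -0.35 and Pecam1 (VEGF against Ang1) at -0.61. Without both RNAs that stood apart these were -0.38 and -0.57. With single RNAs left out, and over both left out, the ranges were -0.35 to 0.25 for Vwf and -0.38 to 1.08 for Icam2 (both VEGF against untreated), -0.94 to 0.51 for Icam2 and -0.07 to 1.13 for Pecam1 (both Ang1 against untreated) and -0.57 to 0.45 for Pecam1 (VEGF against Ang1); the cause was not tested.

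For each RNA, 9 of 9 on both array types, the best correlation was with an RNA of its own number. The design text has each of 3 animals give 1 RNA per group, but the labels do not say that the number marks the animal. The replicate block called 0 member probe sets and moved the count at an unadjusted p below 0.05 on array A to 294, where it was 157, for VEGF and to 415, where it was 302, for Ang1, each against untreated, and to 408, where it was 189, between the factors; Vwf after Ang1 had -0.91 ± 0.29 with the replicate block (limma, adjusted p = 0.845). Between VEGF and Ang1, where the numbers were not taken as a pairing, Vwf had an adjusted p = 0.87 with the block (limma). It was then the 1 member with an unadjusted p below 0.05, where there was 0 without the block. Array weights called 0, 6 and 24 probe sets in these 3 comparisons (array A) and 0, 2 and 8 (array B), and 0 of them were members. With values as deposited 117 probe sets of array B were called for Ang1 against untreated and 25 for VEGF against Ang1, the highest counts over the settings for that array, and again 0 were members; Ang1 replicate 3 on array B had been scaled lower than the other arrays.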
